A study of Mus musculus with 2 samples.

Results

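Blood vessel endothelial nuclei were a small class of nuclei in the quadriceps muscle of mice lacking PTRF, the caveolar coat protein that is also called Cavin1, and of wild-type mice. The rule took every nucleus with at least 200 detected genes that held at least 3 unique molecular identifiers (UMIs, each counting 1 captured RNA molecule) summed over 10 endothelial genes. These panel genes were Pecam1, Cdh5, Flt1, Kdr, Emcn, Ptprb, Cyyr1, Tek, Mecom and Egfl7, and at least 2 of them had to be detected. The panel sum also had to exceed the summed UMIs of 9 genes of lymphatic, fibroblast, macrophage and mural cells (Mmrn1, Reln, Flt4, Prox1, Pdgfra, Dcn, Mrc1, F13a1 and Notch3). The rule found 136 of 7766 nuclei in the PTRF KO library and 33 of 10274 nuclei in the WT library, 169 of 18040 in all. The nuclei were thus chosen by the measured levels of these 19 genes, which are described here and support nothing.

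The study profiled single nuclei by droplet RNA sequencing of the quadriceps, a large thigh muscle. A library from PTRF knockout mice of the C57BL/6N strain, 3 months old, was set beside a library from WT mice of that strain and age. Each genotype was represented by 1 library, which leaves every difference below without replicates and means that mouse, library and genotype cannot be told apart. The labels state neither how many mice were pooled, nor their sex, nor how the knockout allele was made.

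Endothelial cells line every blood vessel and, in skeletal muscle, mostly form the capillaries that run along the fibres. They keep the barrier through junction proteins such as VE-cadherin, set vessel tone through nitric oxide, pass fatty acids from blood to fibre and anchor on a basement membrane of type IV collagen and laminin. Their surface is rich in caveolae, flask-shaped membrane pits built from caveolins and coated by cavins, in which Cavin1 is the coat protein that other cavins need for assembly. Endothelial identity is kept by transcription factors of the ETS family, among them Erg and Fli1, which bind a core of GGAA.

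Promoter sequence is shown for 3 genes that mark these nuclei, because the ETS core falls inside each window. Flt1 encodes a receptor of vascular endothelial growth factor, Emcn a surface sialomucin, and Tie1 an orphan receptor of the angiopoietin system that the rule did not use. The windows run from 250 bases before to 50 bases after the start of transcription in the RefSeq annotation of GRCm38.p6, at chr5:147725962-147726261 (minus strand) for Flt1, chr3:137340828-137341127 (plus strand) for Emcn and chr4:118489800-118490099 (minus strand) for Tie1. Capitals mark AGGAAG or its reverse complement CTTCCT, both searched for without other motifs.
Flt1: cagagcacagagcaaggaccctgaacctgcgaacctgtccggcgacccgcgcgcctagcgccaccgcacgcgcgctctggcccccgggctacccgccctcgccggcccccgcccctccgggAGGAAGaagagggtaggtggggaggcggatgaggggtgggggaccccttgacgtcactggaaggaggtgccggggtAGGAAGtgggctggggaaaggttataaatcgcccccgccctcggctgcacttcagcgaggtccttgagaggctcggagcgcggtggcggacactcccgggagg
Emcn: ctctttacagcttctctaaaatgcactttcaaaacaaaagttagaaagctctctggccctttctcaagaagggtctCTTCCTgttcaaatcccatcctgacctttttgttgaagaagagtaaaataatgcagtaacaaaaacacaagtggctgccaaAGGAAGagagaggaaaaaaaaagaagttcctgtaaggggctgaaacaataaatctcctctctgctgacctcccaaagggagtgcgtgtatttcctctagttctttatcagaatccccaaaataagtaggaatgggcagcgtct
Tie1: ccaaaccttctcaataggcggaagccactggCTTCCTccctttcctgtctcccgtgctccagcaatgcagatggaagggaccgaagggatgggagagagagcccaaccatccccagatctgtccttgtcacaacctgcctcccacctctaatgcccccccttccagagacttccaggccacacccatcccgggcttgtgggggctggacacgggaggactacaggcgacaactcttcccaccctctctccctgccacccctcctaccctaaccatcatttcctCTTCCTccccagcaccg
Each of these windows held 2 matches. The motif stood in 35.4% of all 32851 promoter windows of 27025 genes, in 5 of the 10 windows found for 7 panel genes, and in 10 of the 24 windows found for 15 of the 20 genes most enriched in these nuclei. A match is a description of letters and not a measured binding site.

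The libraries differed in depth, with 16052317 UMIs in PTRF KO and 9744405 UMIs in WT. The chosen nuclei held 230919 UMIs in PTRF KO and 30894 UMIs in WT, with medians of 995 and 631 UMIs per nucleus, beside medians of 1572.5 and 703 UMIs in the remaining nuclei. A floor of 3 UMIs over the chosen nuclei corresponds to 12.99 CPM (UMIs of a gene scaled to a common library total) in PTRF KO and 97.1 CPM in WT. Intervals below are exact 95% intervals that cover counting error only. Cavin1 itself gave 0 UMIs in PTRF KO endothelial nuclei and 3 UMIs in 3 WT endothelial nuclei, with 0.126 CPM and 7.41 CPM in the remaining nuclei of PTRF KO and WT. The libraries shared 24 barcodes, of which 0 lay among the chosen nuclei. The PTRF KO library held RNA of both sexes, with 1527 nuclei carrying Xist UMIs but no Y-linked UMIs and 3103 carrying the reverse, against 2 and 2721 nuclei in WT.

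The label was checked on Flt1, Ptprb, Pecam1 and Cdh5. Their summed level was 1802 CPM (1633 to 1983) in endothelial nuclei and 19.8 CPM in the remaining nuclei of PTRF KO. In WT it was 1586 CPM (1173 to 2097) in endothelial nuclei and 35.6 CPM in the remaining nuclei. All 4 genes were detected in the chosen nuclei of both libraries. These genes belong to the rule, so the gap is a property of the choice.

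The WT nuclei sat close to the threshold. Exactly 3 panel UMIs were held by 20 of the PTRF KO nuclei and 16 of the WT nuclei, and 10 or more by 50 PTRF KO nuclei and 0 WT nuclei. The median was 7 panel UMIs in PTRF KO and 4 in WT, with maxima of 75 and 7. Just outside the threshold, 31 PTRF KO nuclei and 58 WT nuclei held 2 panel UMIs from 2 genes, and another 75 and 10 held 3 or more UMIs of a single panel gene. The exclusion genes removed 46 nuclei in PTRF KO, 42 of them for lymphatic genes, and 3 nuclei in WT.

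A list of 24 endothelial genes that the rule did not use showed how the choice sorted nuclei by content. In nuclei with 4 to 9 panel UMIs the list summed to 5470 CPM (4983 to 5991) in PTRF KO and 5220 CPM (4084 to 6574) in WT. At exactly 3 panel UMIs it summed to 1663 CPM (1340 to 2039) in PTRF KO and 819 CPM (448 to 1374) in WT, and the 50 PTRF KO nuclei with 10 or more panel UMIs reached 8496 CPM. Nuclei just outside the threshold had 724 CPM in PTRF KO and 479 CPM in WT, and nuclei with no panel UMI 290 CPM and 220 CPM. The identity genes thus climbed with panel UMIs in both libraries, and at 4 to 9 panel UMIs the intervals of the libraries overlapped.

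Muscle RNA moved the other way. The 16 myonuclear markers summed to 88353 CPM in PTRF KO and 91866 CPM in WT at 3 panel UMIs, and to 39866 CPM in PTRF KO and 65468 CPM in WT at 4 to 9. Over all chosen nuclei they made up 45150 CPM in PTRF KO and 80080 CPM in WT, beside 88896 CPM and 113790 CPM in the remaining nuclei. The part of this muscle RNA in the differences between genotypes was not tested, so the ratios below are given for all chosen nuclei and, for the lists and most of the ranked genes, also for the 116 PTRF KO and 17 WT nuclei with at least 4 panel UMIs.

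**Figure D1:**
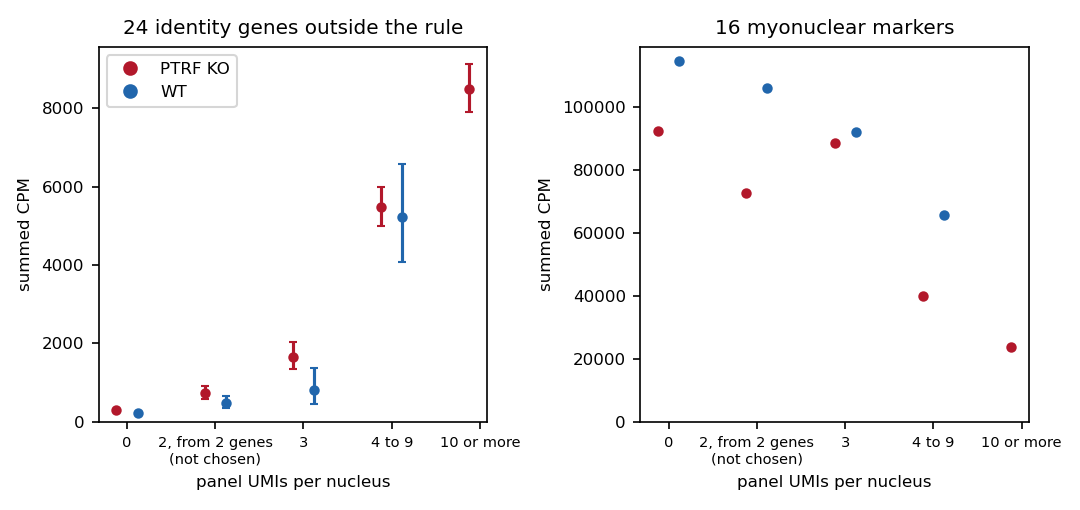
Summed CPM of 24 endothelial identity genes outside the rule (left, with exact 95% counting intervals) and of 16 myonuclear markers (right) by panel UMIs per nucleus, PTRF KO in red and WT in blue. Identity levels are 1663 and 819 CPM at 3 panel UMIs and 5470 and 5220 CPM at 4 to 9, in PTRF KO and WT, while muscle levels are lower at higher panel UMIs.

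Endothelial nuclei made up a larger share of the PTRF KO library. They were 1.75% of nuclei in PTRF KO (1.47 to 2.07) and 0.321% in WT (0.221 to 0.451), a difference of 1.43 percentage points and a ratio of 5.45. Lymphatic endothelial nuclei numbered 122 in PTRF KO and 12 in WT, and mural nuclei, the pericytes and smooth muscle of vessels, 126 in PTRF KO and 70 in WT. A share of nuclei depends on how many other nuclei were recovered, so it gives no number of vessels.

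The share was higher in PTRF KO under each setting tried, by amounts that varied. Thinning to 500 UMIs, with shallower nuclei left out, gave 1.15% of 7766 nuclei in PTRF KO and 0.231% of 8219 in WT. With at least 5 panel UMIs from 3 genes required, the shares were 1.13% in PTRF KO (88 nuclei) and 0.0779% in WT (8 nuclei). Among nuclei marked only by Y-linked RNA, the shares were 0.999% (0.680 to 1.42) in PTRF KO and 0.368% (0.176 to 0.675) in WT. Leaving out nuclei with UMIs of other cell types gave 0.695% in PTRF KO and 0.234% in WT. The intervals of PTRF KO and WT did not overlap in any of these settings.

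**Figure D2:**
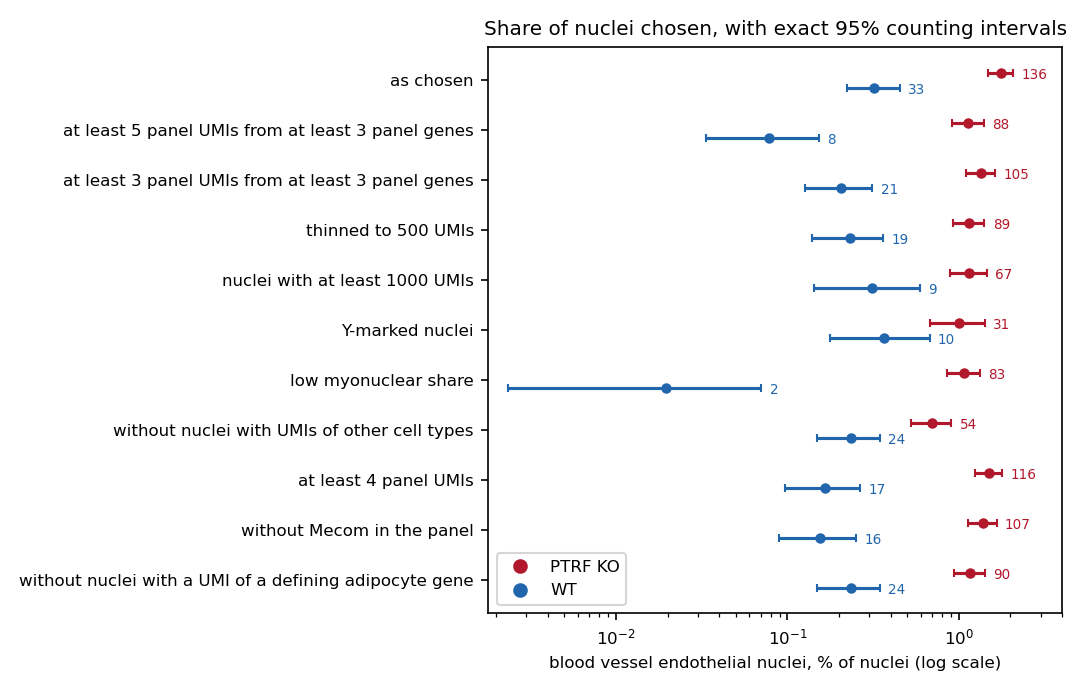
Percentage of nuclei chosen as blood vessel endothelial (log axis) in PTRF KO (red) and WT (blue) as chosen and under 10 other settings, with exact 95% counting intervals and the number of nuclei beside each point. PTRF KO lies to the right of WT in each line, from 1.75% against 0.321% as chosen to 0.999% against 0.368% in nuclei marked by Y-linked RNA.

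The panel genes were led by Mecom, a zinc finger transcription factor, at 2027 CPM in PTRF KO and 1489 CPM in WT. Mecom was also the panel gene with the highest level elsewhere, at 55.8 CPM and 51.2 CPM in the remaining nuclei. Cyyr1, a membrane protein of little known function, had 823 CPM in PTRF KO and 486 CPM in WT and the largest enrichment of the panel, 99.9-fold over the remaining nuclei. Pecam1, the adhesion molecule CD31 of endothelial junctions, had 710 CPM in PTRF KO and 550 CPM in WT. Ptprb, the phosphatase that acts on VE-cadherin and Tie2, had 498 CPM in PTRF KO and 453 CPM in WT. For Pecam1 and Ptprb the counting intervals of the genotypes overlapped.

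Growth factor receptors were less abundant. Flt1 had 459 CPM in PTRF KO and 486 CPM in WT, and Tek, the angiopoietin receptor Tie2, had 286 CPM and 259 CPM. Kdr, the main signalling receptor of vascular endothelial growth factor, had 20 UMIs or 86.6 CPM in PTRF KO and 5 UMIs or 162 CPM in WT. Cdh5, which encodes VE-cadherin, had 31 UMIs or 134 CPM in PTRF KO and 3 UMIs or 97.1 CPM in WT. Emcn had 173 CPM in PTRF KO and 259 CPM in WT, and Egfl7, a secreted endothelial factor, had 264 CPM and 227 CPM. Their WT levels rest on 3 to 15 UMIs each.

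The exclusion genes were low but not absent. Reln and Mmrn1, which mark lymphatic endothelium, had 21 and 19 UMIs in PTRF KO and 3 and 0 UMIs in WT. Prox1, the master regulator of lymphatic fate, had 19 UMIs in PTRF KO and 1 UMI in WT, and Flt4, the receptor of the lymphatic growth factor Vegfc, had 15 and 3. Notch3 had 9 UMIs in PTRF KO and 1 in WT, F13a1 7 and 0, Dcn 6 and 1, Mrc1 4 and 0, and Pdgfra 1 and 2. Across the chosen nuclei no exclusion gene passed 21 UMIs.

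**Figure D3:**
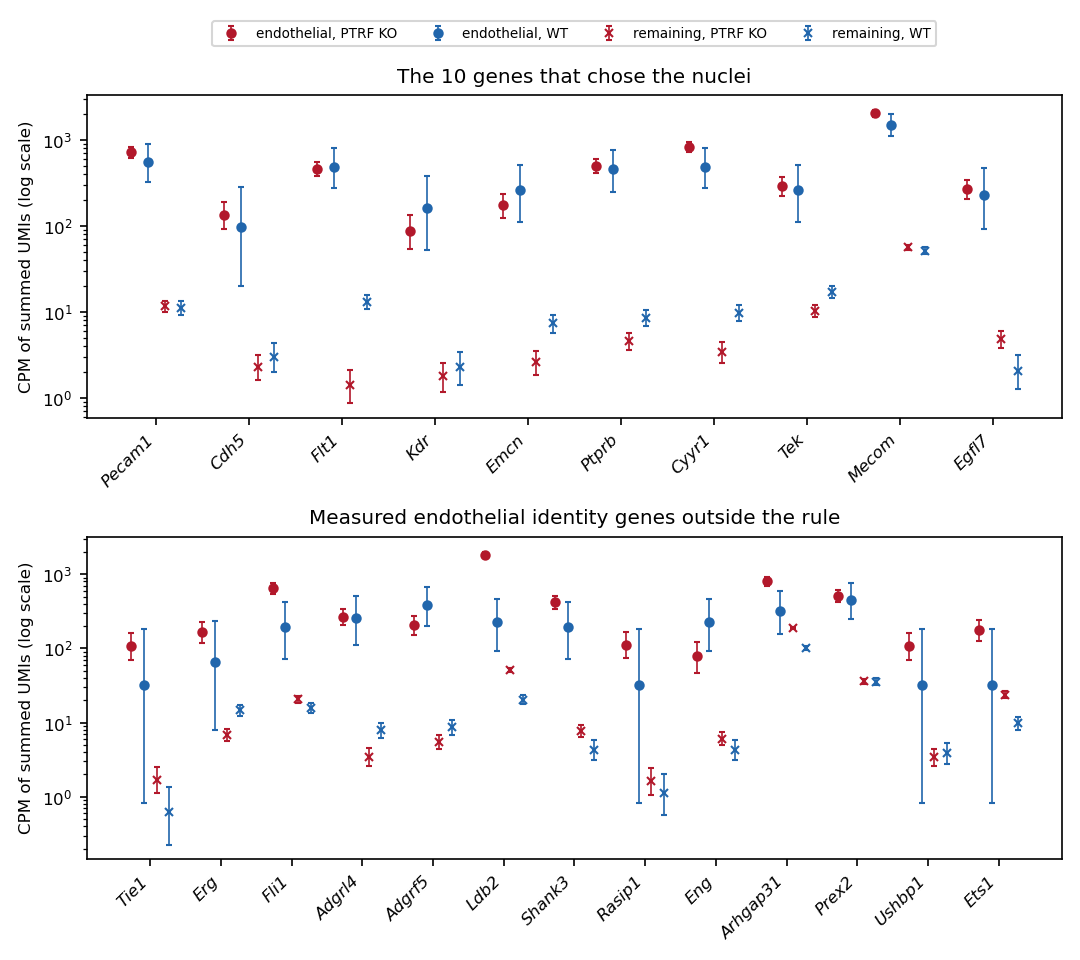
CPM of summed UMIs (log axis) of the 10 panel genes (top) and the 13 measured identity genes outside the rule (bottom) in endothelial nuclei (circles) and remaining nuclei (crosses) of PTRF KO (red) and WT (blue), with exact 95% counting intervals. Circles lie above crosses for each of these genes in both libraries, and WT intervals are wide, as for Cdh5 with 31 UMIs in PTRF KO and 3 in WT.

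Over both sums, 2625 genes had at least 20 UMIs and count as measured, and 567 of them (21.6%) were at least 2-fold higher in endothelial than in remaining nuclei, 555 of them outside the rule. Enrichment is the mean CPM in endothelial nuclei over the mean CPM in remaining nuclei. The highest outside the rule among genes with at least 30 UMIs was Mcf2l, which encodes an exchange factor for small GTPases, at 78.2-fold. It had 104 CPM (24 UMIs) in PTRF KO and 259 CPM (8 UMIs) in WT. Within single libraries its fold was 91.4 in PTRF KO and 74.0 in WT. Shank3, a scaffold best known from synapses, followed at 50.9-fold, with 416 CPM in PTRF KO and 194 CPM in WT. The adhesion receptors Adgrl4 and Adgrf5 stood at 46.3-fold and 42.3-fold. Adgrl4 had 268 CPM in PTRF KO and 259 CPM in WT, and Adgrf5 had 208 CPM in PTRF KO and 388 CPM in WT.

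Among the other places, Dach1, a transcription factor that supports coronary artery growth in mice, was enriched 31.9-fold, with 684 CPM (158 UMIs) in PTRF KO and 259 CPM (8 UMIs) in WT. Within single libraries the fold of Dach1 was 155 in PTRF KO and 10.3 in WT. Fli1, an ETS factor, was enriched 23.0-fold, with 645 CPM in PTRF KO and 194 CPM in WT. Ldb2, a cofactor of LIM domain transcription factors, was enriched 28.7-fold. Prkch, a protein kinase C, was enriched 29.0-fold, and Rasgrf2, an exchange factor for Ras, 24.9-fold.

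The remaining places held genes with varied roles. Entpd1 encodes CD39, which degrades extracellular ATP, and was enriched 26.6-fold, with 342 CPM in PTRF KO and 162 CPM in WT. Kitl, which encodes stem cell factor, was enriched 21.6-fold, with 359 CPM (83 UMIs) in PTRF KO and 97.1 CPM (3 UMIs) in WT. Ablim3 (37.9-fold), Zfp366 (33.0-fold), Fgd5 (26.2-fold), Hspa12b (23.9-fold), St6galnac3 (21.8-fold), Prkd2 (21.8-fold), Itpkb (21.1-fold), Rapgef5 (20.99-fold) and Lnx1 (20.4-fold) completed the list of 20. All 20 had UMIs in the endothelial nuclei of both libraries, from 2 UMIs (Hspa12b and Lnx1) to 22 UMIs (St6galnac3) in WT.

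Blood vessel nuclei were set against lymphatic endothelial nuclei within PTRF KO, where both classes were large enough. Of 2737 measured genes, 181 (6.61%) were at least 2-fold higher and 263 (9.61%) at least 2-fold lower in blood vessel nuclei. Dach1 had 684 CPM in blood vessel nuclei and 22.04 CPM in lymphatic nuclei, a log2 ratio of 4.79 (3.57 to 6.85). Kitl had 83 UMIs in blood vessel and 4 UMIs in lymphatic nuclei, with a log2 ratio of 3.87, and Zfp366, a zinc finger protein, had 36 and 0 UMIs. Entpd1 had 79 UMIs in blood vessel nuclei and 3 UMIs in lymphatic nuclei, and Igfbp7, a secreted matrix protein, had 113 and 11. Epb41l4a, Kcnc2, Samd12, Gcnt2 and Lnx1 were the other genes among the 10 with the largest bound in this direction.

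Panel genes chose the blood vessel nuclei, and lymphatic nuclei had to hold more lymphatic than panel UMIs, so their ratios between the classes are set in part by the choice and only describe it. Mecom had 468 UMIs in blood vessel nuclei and 5 in lymphatic nuclei, and Flt1 had 106 and 2. Cyyr1 had a log2 ratio of 2.50 (1.93 to 3.17), Tek of 2.06, Emcn of 1.24, Ptprb of 1.06 and Pecam1 of 0.92, each with an interval above 0. For Egfl7, Kdr and Cdh5 the intervals held 0, with log2 0.37 (−0.24 to 1.00), −0.12 (−1.12 to 0.91) and 0.08 (−0.74 to 0.93). Outside the rule, Tie1 had log2 0.20 (−0.74 to 1.19), Shank3 0.03 (−0.42 to 0.49) and Erg, the ETS factor of endothelial identity, −0.42 (−1.10 to 0.26). The intervals of Tie1, Shank3 and Erg held 0, so no difference between the classes was detectable for these genes at this depth.

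In the other direction, Nrcam, a neuronal type of adhesion molecule, had 1 UMI in blood vessel nuclei and 44 in lymphatic nuclei. Piezo2, a mechanically gated channel, had 182 CPM in blood vessel nuclei and 1361 CPM in lymphatic nuclei, a log2 ratio of −2.89 (−3.41 to −2.43). Gpm6a had 10 UMIs in blood vessel and 104 in lymphatic nuclei, and the sodium channel Scn3a had 5 UMIs in blood vessel nuclei against 58 in lymphatic nuclei. Emid1, Col23a1, Apba2, Fgf12 and Sh3gl3 were also among the 10 lowest. Muscle RNA also differed, with Ttn at 22307 CPM in blood vessel nuclei and 11917 CPM in lymphatic nuclei, and its part was not tested.

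Against mural nuclei of PTRF KO, 377 of 3163 measured genes (11.9%) were at least 2-fold higher and 227 (7.18%) at least 2-fold lower in blood vessel nuclei. Prkch had 181 UMIs in blood vessel nuclei and 1 in mural nuclei, a log2 ratio of 7.42 (5.51 to 13.3). Shank3 had 96 and 0 UMIs and Adgrl4 62 and 0 UMIs. Fli1 had 645 CPM in blood vessel nuclei and 18.3 CPM in mural nuclei. Contractile and ion channel genes ran the other way, with Cacna1c, the pore of the L-type calcium channel, at 65.0 CPM in blood vessel nuclei and 1264 CPM in mural nuclei. Its subunit Cacnb2 had 2 UMIs in blood vessel and 171 in mural nuclei, and the phosphodiesterase Pde3a had 11 and 257. Ebf1, a transcription factor, was abundant in both, at 3205 CPM in blood vessel nuclei and 2542 CPM in mural nuclei.

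Genes of arteries, capillaries and veins were sparse at this depth. After thinning to 500 UMIs, at least 1 UMI of the 12 capillary genes that were enriched in endothelial nuclei was found in 41.9% of 136 endothelial nuclei in PTRF KO (33.5 to 50.7) and in 20.0% of 30 in WT (7.71 to 38.6). Another random thinning to 500 UMIs gave 46.3% in PTRF KO and 26.7% in WT, so the thinned shares vary with the draw. The 12 genes were kept for being higher in endothelial than in remaining nuclei, so a gap to other nuclei follows in part from the choice. Mural nuclei, which should lack most of them, gave 13.5% of 126 in PTRF KO and 6.78% of 59 in WT. Their unthinned median depths were 1805 UMIs in PTRF KO and 1015.5 UMIs in WT, beside 995 and 631 UMIs in endothelial nuclei. The intervals of WT endothelial and WT mural nuclei (1.88 to 16.5) overlapped, and without thinning the shares were 65.4% in PTRF KO and 33.3% in WT.

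Arterial and venous genes were counted in the same way. Arl15, which is also widely expressed, carried many of the arterial UMIs, and without it the thinned arterial share was 31.6% in PTRF KO (23.9 to 40.1) and 13.3% in WT (3.76 to 30.7), beside 10.3% and 6.78% in mural nuclei. Venous genes were found in 22.8% of endothelial nuclei in PTRF KO and 23.3% in WT, beside 7.14% and 5.08% in mural nuclei. The unthinned arterial shares, Arl15 included, were 76.5% in PTRF KO and 45.5% in WT, and the venous shares were 36.8% and 27.3%. Per summed level, the arterial list had 1689 CPM in PTRF KO and 1165 CPM in WT, the capillary list 2287 CPM and 2266 CPM, and the venous list 615 CPM and 388 CPM.

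The levels inside endothelial nuclei were then compared between genotypes. Of the 2625 measured genes, 690 (26.3%) were at least 2-fold higher and 190 (7.24%) at least 2-fold lower in PTRF KO, and the counting interval lay above 0 for 293 (11.2%) and below 0 for 121 (4.61%). The minimum of 20 UMIs applies to both libraries together, and most of these UMIs came from PTRF KO. A gene high in PTRF KO could thus pass through that library alone, so the filter shaped these counts and the median in part. The median log2 ratio over all measured genes was 0.33, so ratios are to be read against it and not against 0. It was 0.71 with TMM scaling, which gave 1020 genes higher and 86 lower, and 0.15 when muscle, Rn18s, Malat1 and mitochondrial genes were taken out of the totals, which gave 545 higher and 263 lower. Ratios between −0.38 and 0 turn positive under TMM. Of the 2625, 183 had 0 UMIs in WT, where a fold is given only as the lower end of the exact interval, which is below the bound that a floor of 3 UMIs over the WT nuclei would give.

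Among the 555 enriched genes outside the rule, 196 (35.3%) were at least 2-fold higher and 42 (7.57%) at least 2-fold lower, with a median log2 ratio of 0.56. Of 376 enriched genes with at least 30 UMIs, 99 had an interval above 0 and 9 an interval below 0. The UMI minimum was applied to sums over both libraries, with 230919 UMIs from PTRF KO and 30894 from WT. Enrichment was taken from the same nuclei, and 37 of the 555 genes had 0 UMIs in WT. These splits between higher and lower genes are thus shaped in part by the filter. The 12 genes with the largest bound above 0 are described first. Ldb2 had 1832 CPM (423 UMIs) in PTRF KO and 227 CPM (7 UMIs) in WT, a log2 ratio of 2.92 (1.96 to 4.34) and of 2.24 at 4 or more panel UMIs. Ebf1 had 3205 CPM (740 UMIs) in PTRF KO and 874 CPM (27 UMIs) in WT, a log2 ratio of 1.85 (1.32 to 2.49) and of 2.17 at 4 or more panel UMIs. These were the pair with the highest counts, and both were detected in 110 PTRF KO nuclei. Ebf1 also differed in the remaining nuclei, with 831 CPM in PTRF KO and 244 CPM in WT, and Ldb2 had 51.4 CPM and 20.4 CPM. Of the 12 genes, only D5Ertd615e was lower in the remaining nuclei of PTRF KO, with 13.3 CPM beside 16.9 CPM in WT.

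Several of the others regulate transcription or signalling. Wwtr1, which encodes the Hippo pathway coactivator TAZ, had 136 UMIs in PTRF KO and 2 in WT, a log2 ratio of 2.87 (1.30 to 6.25) and of 2.65 at 4 or more panel UMIs. Etv6, an ETS family repressor, had 134 UMIs in PTRF KO and 3 in WT, a log2 ratio of 2.36 (1.00 to 4.87) and of 1.80 at 4 or more. Grk5, a kinase that desensitises G protein-coupled receptors, had 107 UMIs in PTRF KO and 1 in WT, with log2 3.26 (1.33 to 9.16) and 2.23 at 4 or more. The upper ends are wide because the WT counts are 1 to 3.

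Stox2 had 1702 CPM in PTRF KO and 550 CPM in WT, a log2 ratio of 1.59 that was 0.93 at 4 or more panel UMIs. Prkch had 784 CPM in PTRF KO and 194 CPM in WT, with a log2 ratio of 1.90. At 4 or more panel UMIs its ratio was 0.93 (−0.11 to 2.51), an interval that held 0. For both Stox2 and Prkch, the ratio was thus smaller in nuclei further from the threshold. Fbxl7, an F-box protein of ubiquitin ligases, had 927 CPM in PTRF KO and 194 CPM in WT, with log2 2.14 and 2.54 at 4 or more panel UMIs. Adamts9, a secreted protease of the extracellular matrix, had 101 UMIs in PTRF KO and 2 in WT, with log2 2.44 (0.87 to 5.82) and 1.59. D5Ertd615e, which has no assigned role here, had 122 UMIs in PTRF KO and 1 in WT, with log2 3.45 (1.52 to 9.34) and 2.57 at 4 or more panel UMIs. Col4a2 and Pparg, the last of the 12, appear with their groups below.

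The 9 genes with an interval below 0 had log2 ratios from −1.87 (Gpc6) to −0.84 (Ahnak). St6galnac3, a sialyltransferase and the only one of them among the 20 most enriched, had 307 CPM (71 UMIs) in PTRF KO and 712 CPM (22 UMIs) in WT, a log2 ratio of −1.23 (−1.92 to −0.45) and of −1.82 at 4 or more panel UMIs. Grb2, an adaptor of receptor tyrosine kinases, had 147 CPM in PTRF KO and 388 CPM in WT, with log2 −1.44 and −2.09 at 4 or more. Ahnak, a very large scaffold protein, had 368 CPM in PTRF KO and 647 CPM in WT, with log2 −0.84 and −1.10. These 3 kept their sign in nuclei further from the threshold, though the interval of Ahnak there (−1.97 to 0.03) held 0.

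Gpc6, a glypican, had 108 CPM in PTRF KO and 388 CPM in WT, a log2 ratio of −1.87 that was −0.30 at 4 or more panel UMIs. Ust, a sulfotransferase, had the same UMIs as Creb3l2 and Hmcn2, 25 in PTRF KO and 9 in WT, and its log2 ratio of −1.48 was 0.10 at 4 or more panel UMIs. Bicc1, an RNA-binding protein, had log2 −1.32 and −0.94 at 4 or more, and Ebf3, a relative of Ebf1, −1.18 and −1.14. Creb3l2 and Hmcn2 had −0.92 and −0.78 at 4 or more. At 4 or more panel UMIs, 27 of the 29 ranked and measured caveolae genes had the sign they had in all nuclei, the exceptions being Ust and Ehd2. These nuclei are a subset of all chosen nuclei, so this agreement follows in part from the overlap. Of the 9 genes with an interval below 0, only St6galnac3 and Grb2 kept it below 0 there. Signs held for 24 of 29 genes with at least 3 panel genes, and for 20 of 28 at a low myonuclear share.

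**Figure D4:**
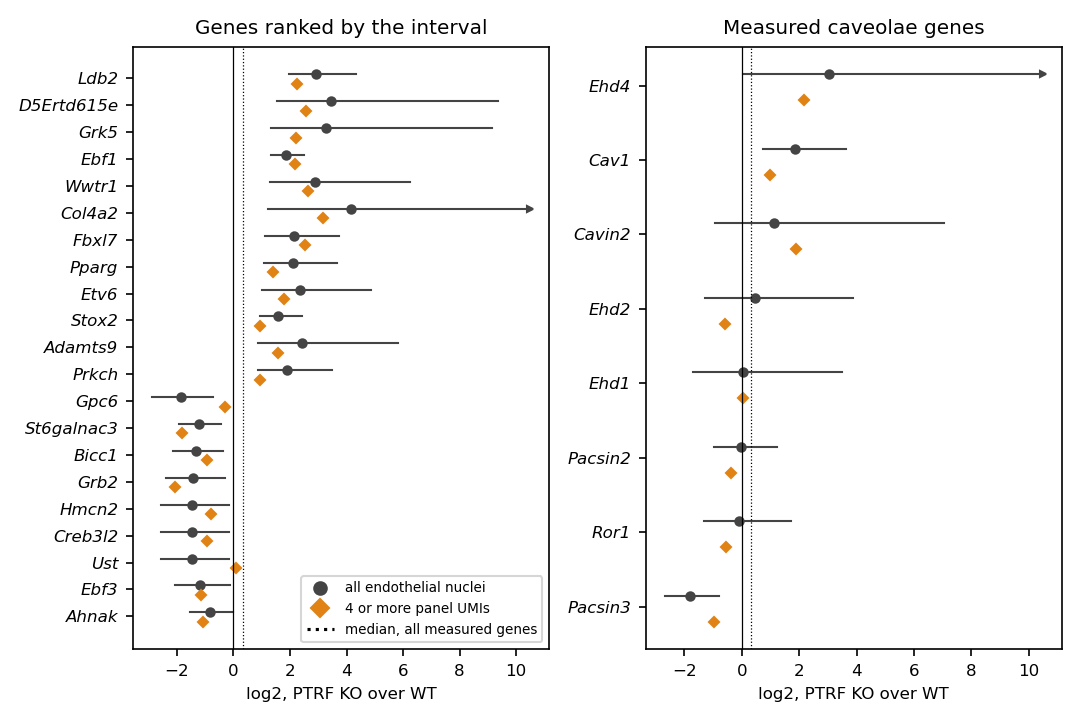
Log2 ratio, PTRF KO over WT, of the ranked genes (left) and the measured caveolae genes (right) in all endothelial nuclei (circles with exact 95% counting intervals, arrows where the upper end is open) and at 4 or more panel UMIs (diamonds), with the median of all measured genes dotted at 0.33. Ldb2 stands at 2.92 and 2.24, Ust at −1.48 and 0.10, and Cav1 at 1.86 and 0.98.

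The caveolae list held 16 genes, of which 8 were measured. Of these, 3 were at least 2-fold higher and 1 at least 2-fold lower, beside 26.3% and 7.24% of all measured genes. The median log2 ratio was 0.25, beside 0.33 over all measured genes. The summed level was 1745 CPM in PTRF KO and 1457 CPM in WT, a log2 ratio of 0.25 (−0.19 to 0.74) and of 0.18 at 4 or more panel UMIs. Cav1 RNA, which encodes the caveolin of endothelial and fat cells, had 149 UMIs in PTRF KO and 5 in WT. Its level was 645 CPM in PTRF KO and 162 CPM in WT, a log2 ratio of 1.86 (0.74 to 3.64). In nuclei with at least 4 panel UMIs this ratio was 0.98 (−0.14 to 2.76), an interval that held 0.

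The remaining nuclei also differed in Cav1, with 110 CPM in PTRF KO and 17.8 CPM in WT. Pacsin3, a membrane-bending protein that muscle expresses, had 143 CPM (33 UMIs) in PTRF KO and 486 CPM (15 UMIs) in WT, a log2 ratio of −1.79 (−2.69 to −0.78). It was not enriched in endothelial nuclei, since the remaining nuclei had 267 CPM in PTRF KO and 395 CPM in WT, and at 4 or more panel UMIs the ratio was −0.96 (−2.32 to 1.16). The myonuclear markers given above moved with it, and their part was not tested.

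The EHD proteins sit at the caveolar neck. Ehd4 had 30 UMIs in PTRF KO and 0 in WT, with a lower end of the interval at 1.02-fold and, at 4 or more panel UMIs, at log2 −0.84. Ehd2 had 25 and 2 UMIs with log2 0.45 (−1.26 to 3.86) and Ehd1 19 and 2 UMIs with log2 0.06 (−1.71 to 3.49). Cavin2, another coat protein, had 24 UMIs in PTRF KO and 1 in WT, a log2 ratio of 1.13 (−0.93 to 7.04). Pacsin2, which shapes endothelial caveolae, had 299 CPM in PTRF KO and 291 CPM in WT, and Ror1, a receptor that binds caveolar proteins in human cells, had 165 CPM and 162 CPM. Cav2 and Cavin3 had 3 UMIs each in PTRF KO and 0 in WT, below the minimum. Apart from Cav1, Ehd4 and Pacsin3 the intervals of the measured members held 0.

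The identity list, which the rule did not use, summed to 5747 CPM (5442 to 6064) in PTRF KO and 2784 CPM (2227 to 3438) in WT, a log2 ratio of 1.04 (0.73 to 1.38). Of its 13 measured members 8 were at least 2-fold higher and 1 lower, beside 26.3% and 7.24% of all measured genes. All 13 were enriched, and among enriched genes these shares were 35.3% and 7.57%. The median log2 ratio of the members was 1.19, beside 0.56 over the enriched genes. The ratio of the sum was 0.42 (0.09 to 0.79) at 4 or more panel UMIs and 0.06 at 4 to 9, and it was 0.98 (0.20 to 1.95) at exactly 3 panel UMIs. Fli1 had a log2 ratio of 1.62 (0.58 to 3.20) and of 1.24 at 4 or more, and Arhgap31, which switches off the GTPases Rac1 and Cdc42, had 797 CPM in PTRF KO and 324 CPM in WT. Eng, the transforming growth factor co-receptor endoglin, was the lower member, with 18 UMIs in PTRF KO and 7 in WT, a log2 ratio of −1.60 (−2.87 to −0.04) and of −2.45 at 4 or more panel UMIs. Erg had 38 and 2 UMIs and Tie1 25 and 1 UMIs.

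Endothelial transcription factors summed to 10805 CPM in PTRF KO and 5308 CPM in WT, a log2 ratio of 1.02 (0.80 to 1.26) and of 1.27 at 4 or more panel UMIs. Of 29 genes 13 were measured, 5 at least 2-fold higher and 0 lower, beside 26.3% of all measured and 35.3% of enriched genes that were at least 2-fold higher. Their median log2 ratio was 0.78. Tcf4, a basic helix-loop-helix factor, had 1455 CPM (336 UMIs) in PTRF KO and 453 CPM (14 UMIs) in WT, with log2 1.63 (0.92 to 2.57). Foxp1, a forkhead factor, had 862 CPM in PTRF KO and 486 CPM in WT, with log2 0.78 (0.07 to 1.69). Mef2c, which is abundant in muscle too, had 1459 CPM in PTRF KO and 1295 CPM in WT, and Foxo1, a brake on endothelial growth, 377 CPM and 486 CPM. Foxo1, at log2 −0.40, was the lowest measured member of the list.

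Junction and adhesion genes summed to 9228 CPM in PTRF KO and 4435 CPM in WT, a log2 ratio of 1.05 (0.81 to 1.32) and of 0.70 at 4 or more panel UMIs. Of 23 genes 15 were measured, 6 at least 2-fold higher and 0 lower, a share near the 35.3% of enriched genes, with a median of 0.77. Cdh13, the adiponectin-binding T-cadherin, gave 1106 of 2131 UMIs in PTRF KO and 63 of 137 in WT. Its level was 4790 CPM in PTRF KO and 2039 CPM in WT, a log2 ratio of 1.22 (0.87 to 1.62). In the remaining nuclei Cdh13 had 3105 CPM in PTRF KO and 2010 CPM in WT, nearly the endothelial level in WT only. Magi1, a scaffold of junctions, had 1373 CPM in PTRF KO and 874 CPM in WT, with log2 0.63 and 0.03 at 4 or more panel UMIs. Jam2, a junctional adhesion molecule, had 95.3 CPM in PTRF KO and 97.1 CPM in WT.

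The Notch pathway, through which neighbouring endothelial cells signal, summed to 2269 CPM in PTRF KO and 1327 CPM in WT, a log2 ratio of 0.76 (0.31 to 1.27) and of 1.02 (0.37 to 1.85) at 4 or more panel UMIs. Maml2, a coactivator of Notch, gave more than any other member, with 1260 CPM in PTRF KO and 518 CPM in WT, a log2 ratio of 1.24 (0.56 to 2.11), while its relative Maml3 had 463 CPM and 421 CPM. Of 15 genes 4 were measured, 1 of them at least 2-fold higher and 0 lower, beside 26.3% and 7.24% of all measured genes.

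Receptors of endothelial growth factors summed to 2836 CPM in PTRF KO and 2039 CPM in WT, a log2 ratio of 0.47 (0.10 to 0.87) that was 0.02 at 4 or more panel UMIs. Of 21 genes 10 were measured, 4 at least 2-fold higher and 1 lower, beside 26.3% and 7.24% of all measured genes. The median was 0.56. Nrp2, a co-receptor of Vegfc, had 45 UMIs in PTRF KO and 1 in WT, with log2 2.02 (0.04 to 7.92), and Nrp1, a co-receptor of Vegfa, had 411 CPM in PTRF KO and 291 CPM in WT. Igf1r, the receptor of insulin-like growth factor, had 619 CPM in PTRF KO and 421 CPM in WT.

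Ligands made by endothelium summed to 1503 CPM in PTRF KO and 1327 CPM in WT, a log2 ratio of 0.16 (−0.29 to 0.68). The direction turned in nuclei further from the threshold, where the ratio was −0.35 at 4 or more panel UMIs, −0.79 (−1.35 to −0.16) at 4 to 9 and −1.302 (−1.86 to −0.64) with at least 5 panel UMIs from 3 genes. Of 18 genes 6 were measured, 2 at least 2-fold higher and 0 lower, beside 26.3% and 7.24% of all measured genes. The median was 0.26. Vegfc had 50 UMIs in PTRF KO and 1 in WT, a log2 ratio of 2.17 (0.20 to 8.07), and Kitl had log2 1.67 (0.29 to 4.19). Bmp6, which endothelium makes to control iron balance in liver, had 225 CPM in PTRF KO and 421 CPM in WT, with log2 −0.94 (−1.80 to 0.10), and Pdgfd, a platelet-derived growth factor, 351 CPM and 518 CPM. Members of the list thus lay on both sides of 0.

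Genes of basement membrane summed to 2477 CPM in PTRF KO and 1359 CPM in WT, a log2 ratio of 0.85 (0.41 to 1.35) and of 1.26 at 4 or more panel UMIs. Of 17 genes 6 were measured, 3 at least 2-fold higher and 0 lower. These shares were 26.3% and 7.24% of all measured genes, and 35.3% and 7.57% of enriched genes. The median was 1.13. Col4a1 and Col4a2 encode the chains of vascular collagen IV and share a promoter region. Col4a1 had 103 UMIs in PTRF KO and 3 in WT, with log2 1.98 (0.61 to 4.50), and Col4a2 had 66 UMIs in 43 PTRF KO nuclei and 0 in WT, at least 2.33-fold higher by the lower end of the interval. At 4 or more panel UMIs the lower end for Col4a2 was log2 0.21, and Col4a1 had log2 1.57 (−0.01 to 4.95). Lama4, the laminin chain of endothelial basement membrane, had 541 CPM in PTRF KO and 162 CPM in WT, with log2 1.61 (0.48 to 3.39) and 2.56 at 4 or more panel UMIs. Hspg2, perlecan, had 251 CPM in PTRF KO and 291 CPM in WT, and Lamc1 381 CPM and 227 CPM.

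Genes of nitric oxide and vascular tone summed to 1485 CPM in PTRF KO and 550 CPM in WT, a log2 ratio of 1.39 (0.73 to 2.23) and of 0.75 at 4 or more panel UMIs. Of 22 genes 5 were measured, 3 at least 2-fold higher and 0 lower, beside 26.3% and 7.24% of all measured genes. The median was 1.35, or 0.63 with genes at 0 in WT set at their bound. Nos3, endothelial nitric oxide synthase, had 25 UMIs in 19 PTRF KO nuclei and 0 UMIs in WT, with a lower end of the exact interval at 0.841-fold, so a difference was not detectable at this depth. The largest member was Pde3b, a phosphodiesterase that adipocytes express strongly, with 125 UMIs in 29 PTRF KO nuclei and 0 in WT, at least 4.47-fold higher by the lower end of the interval. At 4 or more panel UMIs the lower end for Pde3b was log2 1.29. Atp2b4, a calcium pump that binds nitric oxide synthase, had 47 UMIs in PTRF KO and 2 in WT, and Piezo1, a flow-sensing channel, 139 CPM and 194 CPM.

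Fatty acid and lipoprotein genes summed to 3993 CPM in PTRF KO and 2233 CPM in WT, a log2 ratio of 0.83 (0.48 to 1.21). Of 22 genes 9 were measured, 3 at least 2-fold higher and 0 lower, beside 26.3% and 7.24% of all measured genes. The median was 0.37. Lpl, lipoprotein lipase, which fat and muscle cells make, had 99 UMIs in 28 PTRF KO nuclei and 0 in WT, at least 3.52-fold higher, and Slc27a1, a fatty acid transporter, had 61 UMIs in 18 nuclei and 0 in WT, at least 2.15-fold higher, both by the lower end of the interval. At 4 or more panel UMIs the lower ends were log2 0.86 for Lpl and 0.18 for Slc27a1. The summed ratio was 0.69 (0.24 to 1.21) at 4 or more panel UMIs and 0.23 (−0.24 to 0.77) at 4 to 9. Cd36, the fatty acid translocase, had 602 CPM in PTRF KO and 647 CPM in WT, and Fabp4, a fatty acid binding protein of capillaries and fat, had 520 CPM and 388 CPM. Gpihbp1, the capillary anchor of lipoprotein lipase, had 2 UMIs in PTRF KO and 1 in WT.

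Adipocyte RNA also differed between the libraries. The 15 adipocyte markers summed to 7713 CPM in endothelial nuclei of PTRF KO and 2007 CPM in those of WT, beside 6765 CPM and 3514 CPM in the remaining nuclei. At least 3 adipocyte UMIs were found in 74 of 136 PTRF KO nuclei and 7 of 33 WT nuclei, and in WT Adipoq, Plin1, Cidec, Acly, Lep, Adrb3 and Tshr were at 0. In the 90 PTRF KO and 24 WT nuclei with no UMI of a defining adipocyte gene, Lpl had 10 UMIs in PTRF KO and 0 in WT, Pde3b 14 and 0, and Slc27a1 2 and 0. Pparg, the nuclear receptor of fat cells that is also on the adipocyte list, had 208 UMIs in PTRF KO and 6 in WT in all endothelial nuclei, with log2 2.10 (1.07 to 3.68), and 45 and 2 UMIs with log2 1.43 (−0.20 to 4.83) in these nuclei. In the same nuclei Cav1 had a log2 ratio of 2.41 (0.83 to 5.79), Lama4 of 2.12 (0.53 to 5.51) and Ldb2 of 3.47, beside 0.98 (−0.14 to 2.76), 2.56 and 2.24 at 4 or more panel UMIs in all endothelial nuclei. The part of adipocyte RNA in these ratios was not tested. Pparg also differed in the remaining nuclei, with 298 CPM in PTRF KO and 36.8 CPM in WT.

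The mixed sex signal touched Lpl and other genes named above. Of the PTRF KO endothelial nuclei, 28 carried Xist UMIs only, 31 Y-linked UMIs only, 7 both and 70 neither, against 0, 10, 0 and 23 in WT. Lpl had 982 CPM in nuclei with Xist only, 203 CPM in those with Y-linked RNA only and 173 CPM in those with neither, and Fabp4 had 1175, 149 and 447 CPM. Adipoq, the fat cell hormone adiponectin, had 140 CPM in nuclei with Xist only and 0 CPM in the other sets. The identity list was at 3857 CPM with Xist only, 3904 CPM with Y-linked RNA only and 11026 CPM with neither, and the myonuclear markers were at 30434, 74508 and 15659 CPM. Nuclei with neither signal were the shallowest, with a median of 751.5 UMIs beside 1419.5 with Xist only and 1347 with Y-linked RNA only, and the part of sex in these values was not tested.

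Activation genes were near the limit of detection. The sprouting list summed to 1247 CPM in PTRF KO and 809 CPM in WT. Its log2 ratio was 0.60 (0.03 to 1.28), and 0.51 (−0.21 to 1.45) at 4 or more panel UMIs. Of its 19 genes 3 were measured, with 1 at least 2-fold higher, beside 26.3% of all measured genes. Rhoj, a small GTPase of angiogenesis, had 572 CPM in PTRF KO and 518 CPM in WT. Esm1 and Apln, which mark sprouting tip cells, and the proliferation genes Mki67 and Top2a had 0 UMIs in both, where the floor of 3 UMIs allows up to 12.99 CPM in PTRF KO and 97.1 CPM in WT. Genes of leukocyte recruitment had a log2 ratio of 0.50 (−0.18 to 1.35) and of −0.01 at 4 or more panel UMIs, and the adhesion molecules Sele and Icam1 had 0 UMIs in both. Immediate early and heat shock genes had a log2 ratio of 0.34 (−0.50 to 1.44) and of 0.08 at 4 or more, with Nr4a1 at 165 CPM in PTRF KO and 227 CPM in WT.

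**Figure D5:**
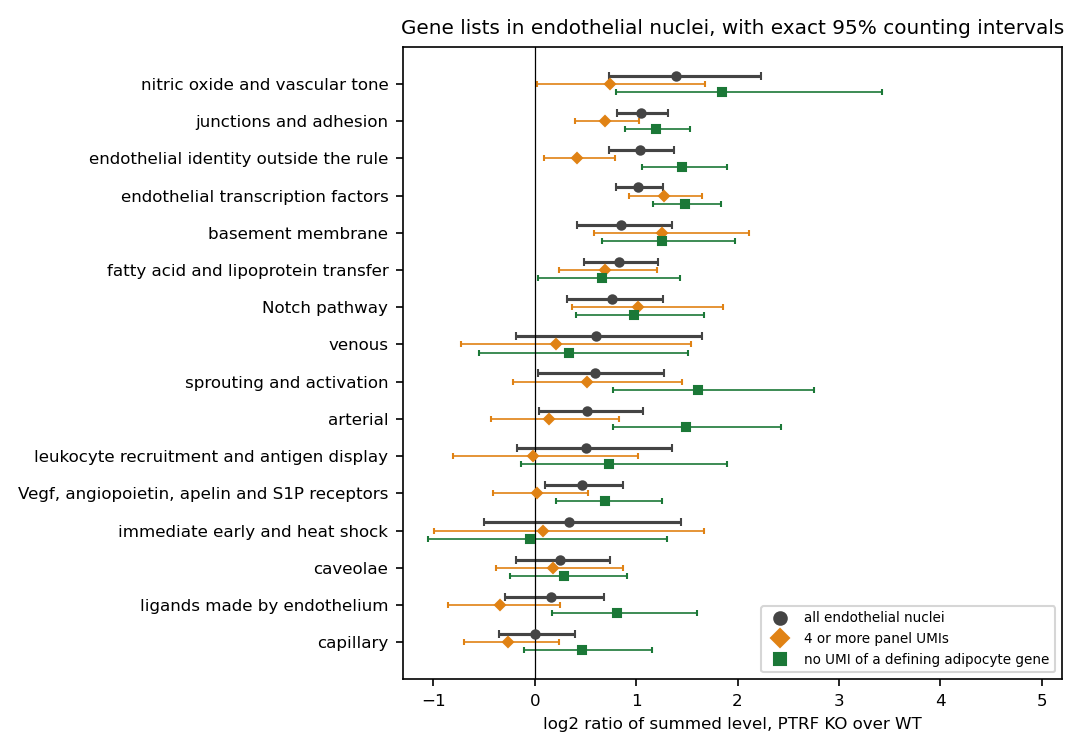
Log2 ratio of summed level, PTRF KO over WT, for 16 gene lists in all endothelial nuclei (circles), at 4 or more panel UMIs (diamonds) and in nuclei with no UMI of a defining adipocyte gene (squares), with exact 95% counting intervals. The interval lies above 0 for 10 lists in all nuclei, led by nitric oxide and vascular tone at 1.39, and the capillary list stands at 0.00.

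Over the 16 lists, 10 had an interval of the summed level above 0 and 0 below 0. For 6 of them, identity, transcription factors, junctions, nitric oxide and tone, fatty acid transfer and basement membrane, it lay above the median of 0.33 over all measured genes. That median is over single genes, while a sum is weighted by its most abundant members. Among enriched genes the median was 0.56, and the lower ends for fatty acid transfer (0.48) and basement membrane (0.41) lay below it. With at least 5 panel UMIs from 3 genes, which left 8 WT nuclei, 1 list had an interval above 0 and 2 below 0. The capillary list lay lowest in all nuclei, at 0.00 (−0.35 to 0.39), with 6 of 16 genes measured and none 2-fold apart. Its ratio was −0.26 (−0.70 to 0.24) at 4 or more panel UMIs and −0.63 (−1.11 to −0.10) at 4 to 9. The lists share members and nuclei, and 1 library per genotype stands behind each sum, so the counts describe these libraries. Markers of other cell types were also found in the chosen nuclei. The lymphatic endothelial markers, which include 4 of the exclusion genes, summed to 407 CPM in PTRF KO and 324 CPM in WT. In the remaining nuclei they had 107 CPM and 80.7 CPM. At least 3 lymphatic UMIs were found in 13 of 136 chosen nuclei of PTRF KO and 0 of 33 in WT. Fibro-adipogenic markers summed to 1295 CPM in PTRF KO and 1327 CPM in WT, beside 1152 CPM and 391 CPM in the remaining nuclei. Glial and neuronal markers summed to 173 CPM in PTRF KO and 1003 CPM in WT, beside 117 CPM and 370 CPM in the remaining nuclei, with 6 of 10 markers detected in PTRF KO and 8 of 10 in WT. Mural markers summed to 381 CPM in PTRF KO and 259 CPM in WT, beside 440.3 CPM and 398 CPM, and macrophage markers to 368 CPM and 291 CPM, beside 307 CPM and 285 CPM. The part of these other cell types in the ratios was not tested.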

How the data were processed

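Nuclei of mouse quadriceps were profiled with 10x 3′ chemistry and poly(A) priming. The authors deposited UMI counts per gene and nucleus, unnormalized. Cell Ranger, version 6.0.0, wrote them per the file headers. STAR, Seurat 4.1.1, mm10 and GRCm38 appear in the submitters' processing notes. Intron and strand use, annotation, doublet removal and the filter for called nuclei are not stated in the labels or headers.

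From these counts, UMIs were summed over the chosen nuclei of each library and given as CPM, with exact Poisson intervals for levels, exact Clopper-Pearson intervals for shares and exact conditional binomial intervals for ratios. Ratios are log2 after adding 0.5 UMI to each sum. With 1 library per genotype no test was run and no p-value is given. The members and lists were chosen with earlier results of these data known. Lymphatic nuclei held at least 3 UMIs from at least 2 of 4 genes (Mmrn1, Reln, Flt4, Prox1), and mural nuclei the same from 8 mural genes, in both cases more than their panel UMIs. List sums leave out the rule's genes. Named genes were all rule and caveolae genes, the 20 most enriched genes outside the rule, up to 12 genes in each direction whose interval bound lay farthest from no difference, and in each list the highest, the lowest and the 2 most abundant measured members. Further members, such as Nos3, Erg, Eng and Gpihbp1, were named after their values were seen. No doublet caller was run, and alternatives leave out nuclei with UMIs of other cell types. Defining adipocyte genes are Adipoq, Plin1, Plin4, Cidec, Lipe, Pck1, Fasn, Acaca, Acly, Lep, Adrb3 and Tshr. Some genes of the lists are not reported here. Thinning drew 500 UMIs per nucleus. Of 53700 features, 52093 matched GENCODE M21, and of 38 ranked genes 17 overlap another gene on their own strand and 10 on the opposite strand only, so their reads may be shared. Python 3.11.15, numpy 2.4.6, scipy 1.17.1, pandas 2.3.3, matplotlib 3.10.9 and edgeR 4.0.16 (for TMM factors only) were used, and the ratio code was checked on simulated data.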

Additional observations from a re-analysis of the deposited data

How the results depend on the processing

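No paired analysis was possible because there was 1 library per genotype, and no replicate could be left out. The share was higher in PTRF KO under each alternative that changes it. The share difference was 1.06 points with at least 5 panel UMIs from 3 genes, 0.915 after thinning, 0.840 in nuclei with at least 1000 UMIs, 0.632 in Y-marked nuclei, 1.05 in nuclei with a low myonuclear share, 0.462 without nuclei with UMIs of other cell types and 0.925 without nuclei with a defining adipocyte UMI. Genes at least 2-fold higher numbered 436 with at least 5 panel UMIs, 184 thinned, 200 Y-marked, 92 at low myonuclear share, 228 without other cell types, 275 with at least 50 UMIs and 1671 with no minimum. Genes at least 2-fold lower numbered 46 thinned, 73 Y-marked, 61 without other cell types, 120 without a defining adipocyte UMI, 86 under TMM, 42 with at least 50 UMIs and 6282 with no minimum. With no minimum and at low myonuclear share (262 lower), more genes were lower than higher. Lists with an interval above 0 numbered 1 with at least 5 panel UMIs, 5 Y-marked and 1 at low myonuclear share, and lists with an interval below 0 numbered 2 with at least 5 panel UMIs and 4 at low myonuclear share, where WT kept 2 nuclei and 1516 UMIs. With at least 5 panel UMIs, which left 8 WT nuclei, the receptor sum had log2 −0.30 and the fatty acid sum −0.19. At low myonuclear share the receptor sum had log2 −0.54, the fatty acid sum −1.05, the sprouting sum −0.87, the nitric oxide median −0.020, the basement membrane median −0.003749, Pparg −0.76, Adamts9 −0.52, Ebf3 0.028 and Ehd4 −0.86. In Y-marked nuclei the fatty acid sum had log2 −0.004031, and with no minimum the nitric oxide median was −0.011. With at least 3 panel genes Bicc1 had log2 0.034, Creb3l2 0.41 and Ust 0.41, and after thinning Creb3l2 had 1.86. Without nuclei with UMIs of other cell types Pparg had log2 −0.36. Settings chosen after seeing the data gave Ust 0.10 at 4 or more panel UMIs, Grb2 0.013 and Ust 1.74 without Mecom in the panel, and Creb3l2 0.13 without a defining adipocyte UMI. The cause of each change was not tested, apart from the smaller numbers of genes or nuclei given. Over single genes and lists, 689 values under alternatives lay inside the limits set around the reported value. Another 153 lay outside them with no change of sign in a called value. The 22 given above changed sign in a called value. Sign changes in values not called, as for the ligand sum with at least 5 panel UMIs, are not among the 22. Counting every sign, 20 of 28 single genes kept theirs at low myonuclear share and 27 of 29 under TMM.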
